A study of Homo sapiens with 12 samples.

Results

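The class II antigen presentation genes of 786-O cells were followed across 4 treatment groups. The set comprised 10 genes, taken by symbol out of the 17085 in the count and FPKM tables: CIITA, HLA-DRA, HLA-DRB1, HLA-DPA1, HLA-DPB1, CD74, HLA-DMA, HLA-DMB, HLA-DOB and IFI30. All 10 symbols were present, and 7 of them passed the filter on low counts (at least 10 counts at the median library size, which is 0.260 CPM, a count scaled to library size, in enough libraries for a group) and were tested. HLA-DRA, HLA-DRB1 and HLA-DMB were too weakly counted to test, with 27, 52 and 33 counts summed over the 12 libraries. HLA-DPA1 and HLA-DPB1 reached the filter level in no DMSO library, so they entered the test only through treated groups, and CIITA and HLA-DOB reached it in 1 DMSO library.

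786-O is a human clear cell renal carcinoma line, labelled wild type, and every group was kept for 24 h with its agent. The DMSO group received the vehicle, the everolimus group 5 µM of an mTOR inhibitor, the SGI-1027 group 1.5 µM of an inhibitor of DNA methyltransferases, and the combination group both drugs at these doses, with 3 libraries each. The sample entries and the paper's methods give 5 µM for the everolimus libraries, while the treatment text gives 10 µM for everolimus alone. The combination may therefore not hold the same everolimus dose as its comparator. The labels do not state separate cultures for the libraries of a group, so the p-values measure the spread between these libraries, which may be technical. Total counts ran from 37046231 to 41516976 per library, and 3 counts, the limit that a count of 0 allows, equalled 0.0729 to 0.0813 CPM. Floors, and the exact counting intervals of the members too weakly counted to test, cover counting error only. Intervals of log2 fold changes and interactions come from edgeR's quasi-likelihood fit and also include the spread between libraries. Libraries of a group were not equally close, and 2 stood apart from the others of their group. DMSO replicate 1 differed from DMSO replicates 2 and 3 by a chi-square per gene of 10.4 and 13.3, where the latter differed from each other by 3.62, and SGI-1027 replicate 3 differed from replicates 1 and 2 by 16.6 and 16.3, where these differed by 3.05. Each call of a member lost without either library is given beside its result. Calls of genes outside the set were not checked in this way. Of 8 markers of the renal line, all 8 were counted, with a summed FPKM (counts scaled by gene length and library size, a level per length) of 3953 to 4667 over the 12 libraries.

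Class II molecules are heterodimers of an alpha and a beta chain that carry peptides from endosomes to the cell surface, where CD4+ T cells read them. HLA-DR and HLA-DP are such heterodimers, CD74 is the invariant chain that guides them to the endosome and fills their groove, HLA-DM removes the remnant of CD74 so that peptides can bind, and HLA-DO restrains HLA-DM. CIITA is the transactivator that switches the class II genes on. It does not bind DNA itself but docks on RFX, CREB and NF-Y proteins that sit on the X and Y boxes of class II promoters, and interferon-gamma induces it in tubular and many other non-immune cells. IFI30 is the interferon-inducible lysosomal thiol reductase that opens disulfide bonds of proteins before they are cut into peptides.

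The HLA genes of the set lie on chromosome 6, CIITA on chromosome 16, CD74 on chromosome 5 and IFI30 on chromosome 19. RefSeq promoter windows of GRCh38.p14, running from 250 bases before to 50 bases after a gene's start, were held for 8 of the 10 genes (not for CIITA and HLA-DRA). The stretches below are shown because they hold letters that match a part of the X box and, except in HLA-DMB, the Y box. CIITA docks on proteins that sit on such boxes. Capitals mark an X box part (CTGATGATG, in HLA-DRB1 joined to the X box core AGCAACNGA that it overlaps) and the Y box ATTGG.
HLA-DRB1: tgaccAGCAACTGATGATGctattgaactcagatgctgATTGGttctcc
HLA-DMA: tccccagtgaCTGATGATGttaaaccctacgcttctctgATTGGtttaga
HLA-DOB: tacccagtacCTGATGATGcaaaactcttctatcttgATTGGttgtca
HLA-DMB: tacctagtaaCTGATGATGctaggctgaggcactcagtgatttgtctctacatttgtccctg
All are on the minus strand, HLA-DRB1 at chr6:32589884-32589932, HLA-DMA at chr6:32953166-32953215, HLA-DOB at chr6:32817090-32817137 and HLA-DMB at chr6:32941060-32941121. From the first base of the X part to the first base of the Y box there were 28 bases in HLA-DRB1, 29 in HLA-DMA and 27 in HLA-DOB, and no Y box followed on the gene's strand in the HLA-DMB window. CTGATGATG was found in 0.271% of all 35116 windows (both strands), and with ATTGG within the next 60 bases on the same strand in 5 windows, 3 of them those of HLA-DRB1, HLA-DMA and HLA-DOB. This part of the X box was searched after the member sequences had been seen, so its matches among the members carry no support of their own. The X box core AGCAACNGA was in 0.965% of windows, among them HLA-DRB1 and HLA-DPA1. With ATTGG within the next 60 bases on the same strand, this core was in 14 of all 35116 windows, and HLA-DRB1 was the only member among them. The Y box alone was in 34.6% of windows, the interferon-stimulated core TTTCNNTTT in 10.5% (HLA-DPB1 among the members) and the gamma-activated site TTCNNNGAA in 7.66%, with no member among them. Matches describe letters in these windows and do not show binding, and the 8 windows included both genes that were tested and genes too weakly counted to test.

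CIITA, the transactivator, was counted weakly everywhere and was higher in the SGI-1027 and combination groups than in the DMSO group. Its counts were 8, 9 and 11 in the DMSO libraries, 7, 16 and 14 in the everolimus libraries, 27, 14 and 19 in the SGI-1027 libraries and 14, 20 and 20 in the combination libraries. Every SGI-1027 and combination library lay above every DMSO library, whereas the everolimus libraries overlapped them. Of all tested genes, 30.6%, 32.5% and 34.5% lay wholly above DMSO in CPM with everolimus, SGI-1027 and the combination. Wholly below it lay 32.3%, 30.7% and 34.7%, so such separation, here and for the members below, was common. Mean TMM-normalized CPM was 0.240 ± 0.0412 for DMSO, 0.315 ± 0.110 under everolimus, 0.516 ± 0.153 under SGI-1027 and 0.464 ± 0.0868 under both drugs (SD, 3 libraries each). In edgeR's quasi-likelihood test the log2 fold change against DMSO was 1.10 with SGI-1027 (standard error 0.38, Benjamini-Hochberg adjusted p = 0.0178) and 0.94 with the combination (standard error 0.39, adjusted p = 0.0396), and with everolimus it was 0.40 (95% interval -0.47 to 1.26, adjusted p = 0.430). These CIITA calls lay near the threshold and were lost when any 1 of several libraries was left out. The SGI-1027 call was lost without DMSO replicate 1 (edgeR adjusted p = 0.0515), DMSO replicate 2 (0.0559) or SGI-1027 replicate 1 (0.101), and the combination call without DMSO replicate 1 (0.0958), DMSO replicate 2 (0.0998), combination replicate 2 (0.0955) or combination replicate 3 (0.107), and with DESeq2 (0.0698) or no filter on low counts (0.0701). Both CIITA calls were also lost with limma-trend on log2(FPKM + 0.1), with adjusted p of 0.235 and 0.306, a scale on which levels this low hardly move. In these bulk libraries, a few cells with much class II RNA and many cells with little cannot be told apart.

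The peptide-binding chains were near the limit of counting. HLA-DPA1, the alpha chain of HLA-DP, had 7, 4 and 4 counts in the DMSO libraries, 24, 20 and 12 in the everolimus libraries, 10, 20 and 17 in the SGI-1027 libraries and 7, 8 and 13 in the combination libraries. All everolimus and SGI-1027 libraries exceeded the highest DMSO library (30.6% and 32.5% of all tested genes), and the combination libraries overlapped with DMSO. Its log2 fold change in edgeR's test was 1.88 with everolimus (standard error 0.47, adjusted p = 0.00248), 1.64 with SGI-1027 (standard error 0.49, adjusted p = 0.00708) and 0.89 with the combination (standard error 0.53, adjusted p = 0.152). The combination lay below everolimus by a log2 value of -0.99 that was not called (edgeR adjusted p = 0.0703). It was called without everolimus replicate 3 (-1.22, edgeR adjusted p = 0.0406). Limma-trend also called it on log2(FPKM + 1) (-0.16, adjusted p = 0.0471) and log2(FPKM + 0.1) (-0.64, adjusted p = 0.0459). No other alternative did. HLA-DPB1, its beta chain partner, had 5, 10 and 8 counts with DMSO, 13, 26 and 17 with everolimus, 10, 18 and 8 with SGI-1027 and 15, 16 and 7 with the combination. Here the everolimus libraries alone stood clear of the DMSO libraries, and the edgeR log2 fold changes were 1.27 with everolimus (standard error 0.44, adjusted p = 0.0211), 0.66 with SGI-1027 (adjusted p = 0.242) and 0.72 with the combination (adjusted p = 0.190). The everolimus call of HLA-DPB1 was lost without DMSO replicate 1 (edgeR adjusted p = 0.0766) or everolimus replicate 2 (0.109). HLA-DPA1 reached the filter level in 0 DMSO, 3 everolimus, 2 SGI-1027 and 1 combination library, and HLA-DPB1 in 0, 3, 1 and 2. Both entered the test only through treated libraries, so their calls against DMSO are descriptions. In the GENCODE 29 annotation HLA-DPA1 and HLA-DPB1 overlap on opposite strands, and as the strand setting of the counting is not given in the sources used here, their reads may not be fully separated.

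HLA-DRA, the alpha chain of HLA-DR, had 0, 0 and 8 counts in the DMSO libraries, 3, 1 and 3 with everolimus, 1, 3 and 1 with SGI-1027 and 2, 3 and 2 with the combination. All but 1 of its 12 libraries were thus at or under 3 counts. HLA-DRB1, a beta chain of HLA-DR, had 1, 4 and 6 counts with DMSO, 3, 2 and 3 with everolimus, 9, 1 and 8 with SGI-1027 and 5 in each of the 3 combination libraries. Over the summed counts, HLA-DRA with everolimus stood at 0.878 of DMSO (exact 95% counting interval 0.271 to 2.77), with SGI-1027 at 0.631 (0.162 to 2.19) and with the combination at 0.878 (0.271 to 2.77). The corresponding ratios of HLA-DRB1 were 0.730 (0.255 to 1.99), 1.65 (0.739 to 3.87) and 1.37 (0.587 to 3.29). Every interval included 1, so that no change of the HLA-DR chains was detectable at this depth in either direction, and the HLA-DRA ratios rest on a single DMSO library that holds all 8 DMSO counts. HLA-DR beta chains are highly polymorphic and share sequence among their genes, so reads of HLA-DRB1 can be lost or divided between them. The further class II chains were at or under 2 counts per group for HLA-DQA1, HLA-DQB1, HLA-DRB5 and HLA-DOA, and HLA-DQA2, HLA-DQB2, HLA-DRB3 and HLA-DRB4 had no row.

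CD74, the invariant chain, was higher in each of the 3 treated groups, by 1.72- to 2.12-fold. It had 122, 139 and 118 counts in the DMSO libraries, 194, 251 and 232 with everolimus, 242, 259 and 295 with SGI-1027 and 205, 232 and 213 with the combination. No treated library overlapped with a DMSO library. Of all tested genes, 30.6%, 32.5% and 34.5% lay wholly above DMSO with everolimus, SGI-1027 and the combination. The DMSO level of 3.25 ± 0.145 CPM compared with 5.81 ± 0.494 under everolimus, 6.89 ± 0.740 under SGI-1027 and 5.59 ± 0.239 under both drugs (SD, 3 libraries each). The log2 fold changes were 0.84 (standard error 0.12, adjusted p = 9.61e-06), 1.08 (standard error 0.12, adjusted p = 2.84e-07) and 0.78 (standard error 0.12, adjusted p = 1.45e-05) in edgeR's test. SGI-1027 gave the highest mean of the 3 treatments, but neighbours in that order were not called apart in the direct tests, with SGI-1027 above everolimus by 0.24 (95% interval 0.01 to 0.48, edgeR adjusted p = 0.126) and the combination differing from everolimus by -0.06 (95% interval -0.30 to 0.18, adjusted p = 0.723). The 3 combination libraries all lay below the 3 SGI-1027 libraries, as in 17.5% of all tested genes. This difference of -0.30 fell short of the threshold (edgeR adjusted p = 0.0645). It passed the threshold without SGI-1027 replicate 1 (-0.38, edgeR adjusted p = 0.0338) and with limma-trend on log2(FPKM + 1) (-0.18, adjusted p = 0.0419). No other alternative called it.

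**Figure D1:**
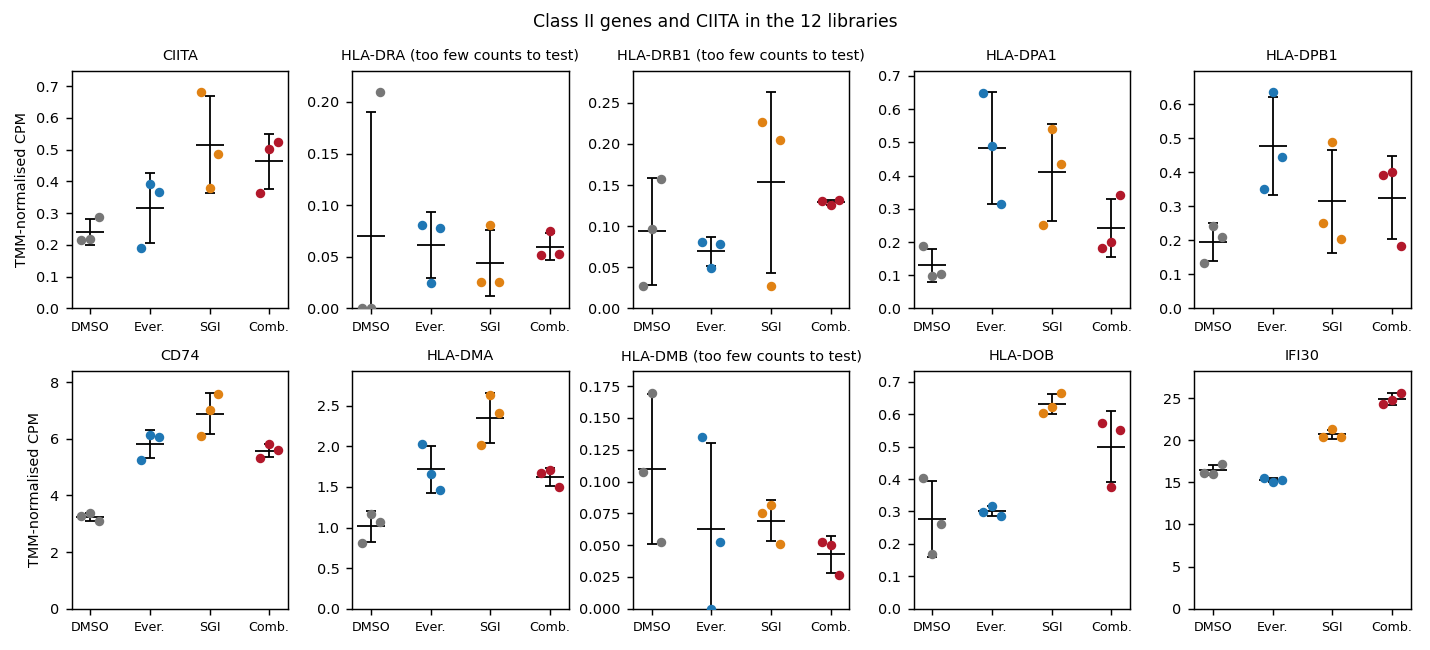
TMM-normalized CPM (vertical axes, each from 0) of the 10 genes in the 12 libraries, by group; dots are libraries, and bars give the mean ± SD of 3 libraries, cut at 0. For CD74 the DMSO mean is 3.25 CPM and the SGI-1027 mean 6.89 CPM with no overlap, whereas the libraries of HLA-DRA, HLA-DRB1 and HLA-DMB all lie between 0 and 0.227 CPM.

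HLA-DMA, the alpha chain of the peptide exchanger HLA-DM, was likewise higher in all 3 treated groups. It had 30, 48 and 41 counts with DMSO, 75, 68 and 56 with everolimus, 80, 97 and 94 with SGI-1027 and 64, 68 and 57 with the combination. Each treated library was above each DMSO library, and each SGI-1027 library was above each combination library. The shares of all tested genes with such separation are those given for CD74. Group means were 1.01 ± 0.187 CPM for DMSO, 1.72 ± 0.286 under everolimus, 2.35 ± 0.310 under SGI-1027 and 1.62 ± 0.110 under both drugs (SD, 3 libraries each). In edgeR's test the log2 fold changes were 0.75 (standard error 0.21, adjusted p = 0.00623), 1.20 (standard error 0.21, adjusted p = 6.81e-05) and 0.67 (standard error 0.22, adjusted p = 0.0108), the last of which lost its call without DMSO replicate 1 (0.54, adjusted p = 0.0518). The combination stood at -0.53 relative to SGI-1027, short of the threshold in edgeR's test (adjusted p = 0.0676). It was past the threshold with limma-trend on log2(FPKM + 0.1) (-0.48, adjusted p = 0.0294) and log2(FPKM + 1) (-0.33, adjusted p = 0.0184), and in no other alternative. HLA-DMB, the beta chain of HLA-DM, had 4, 7 and 2 counts with DMSO, 5, 0 and 2 with everolimus, 3, 3 and 2 with SGI-1027 and 2, 2 and 1 with the combination. Its summed counts gave ratios to DMSO of 0.540 (exact 95% counting interval 0.183 to 1.46), 0.621 (0.223 to 1.62) and 0.386 (0.108 to 1.15), so a change of HLA-DMB could not be shown, and 7 of its 13 DMSO counts came from 1 library. Without a filter on low counts, edgeR called none of HLA-DRA, HLA-DRB1 and HLA-DMB in any comparison, and none had an unadjusted p under 0.05. In GENCODE 29 both HLA-DMA and HLA-DMB overlap AL645941.2, a protein-coding gene on the same strand. How reads were assigned among these genes is not known here.

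HLA-DOB, the beta chain of the HLA-DM modulator HLA-DO, was higher with SGI-1027 and the combination, while with everolimus alone it had a value near that of DMSO. It had 15, 7 and 10 counts with DMSO, 11, 13 and 11 with everolimus, 24, 23 and 26 with SGI-1027 and 22, 15 and 21 with the combination. The SGI-1027 libraries stood above every DMSO and every everolimus library, as in 32.5% and 21% of all tested genes. A combination library tied with the highest DMSO library in counts and lay below it in CPM. In edgeR's test the log2 fold change was 0.13 with everolimus (95% interval -0.68 to 0.94, adjusted p = 0.799), 1.19 with SGI-1027 (standard error 0.34, adjusted p = 0.00582) and 0.85 with the combination (standard error 0.35, adjusted p = 0.0424). SGI-1027 exceeded everolimus by 1.06 (standard error 0.34, edgeR adjusted p = 0.0306), and this call was lost when any of the 6 libraries compared was left out (adjusted p from 0.0565 to 0.0880) and with DESeq2 (0.0550) or no filter (0.0547). The combination call was also lost with DESeq2 (0.0789), no filter (0.0833) or a fit of both groups alone (0.0805), without DMSO replicate 2 (edgeR adjusted p = 0.182), DMSO replicate 3 (0.0945), combination replicate 1 (0.119) or combination replicate 3 (0.108) and, narrowly, when any 1 everolimus or SGI-1027 library was left out (0.0501 to 0.0568). In GENCODE 29 HLA-DOB shares sequence with a readthrough transcript from TAP2, whose own log2 fold changes were -0.34, -0.05 and 0.20 in the everolimus, SGI-1027 and combination groups.

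IFI30, the thiol reductase, was the most strongly counted gene of the set and the only one with its highest level in the combination group. It had 602, 660 and 657 counts with DMSO, 575, 614 and 583 with everolimus, 807, 788 and 793 with SGI-1027 and 931, 987 and 976 with the combination. The order from everolimus through DMSO and SGI-1027 to the combination held without overlap in CPM, at 15.3 ± 0.271, 16.5 ± 0.643, 20.7 ± 0.579 and 24.9 ± 0.710 (SD, n = 3 per group). Of all tested genes, 32.3% lay wholly below DMSO with everolimus and 32.5% wholly above it with SGI-1027. With the combination 17.1% lay wholly above SGI-1027. The lowest neighbours, everolimus and DMSO, did not differ past the threshold in edgeR's test (log2 fold change -0.11, standard error 0.06, adjusted p = 0.135), though limma-trend on log2(FPKM + 1) called that decrease (-0.10, adjusted p = 0.0354). Log2 fold changes against DMSO were 0.33 with SGI-1027 (standard error 0.06, edgeR adjusted p = 0.000111) and 0.60 with the combination (standard error 0.06, adjusted p = 6.66e-08). The combination also exceeded everolimus by 0.71 (standard error 0.06, edgeR adjusted p = 2.58e-08) and SGI-1027 by 0.27 (standard error 0.06, adjusted p = 0.00291). IFI30 shares sequence with a readthrough transcript from PIK3R2 in GENCODE 29, and PIK3R2 was not called against DMSO in any group (log2 fold changes 0.06, 0.10 and -0.05).

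At an adjusted p under 0.05 in edgeR's test, 4 of the 7 tested genes were upregulated in the everolimus group (CD74, HLA-DMA, HLA-DPA1 and HLA-DPB1), where 27.2% of all 12841 tested genes were called higher and 29.2% lower. Of the same 7 genes, SGI-1027 gave 6 that were upregulated (all but HLA-DPB1), beside 32.0% of all genes called higher and 30.6% lower. In the combination group 5 were upregulated (CD74, HLA-DMA, CIITA, HLA-DOB and IFI30), beside 32.8% higher and 33.4% lower. No member was called lower against DMSO in any group. At the cut-off used in the study (unadjusted p under 0.05 and a log2 change of 1 or more in size), 2 members were upregulated in the everolimus group (HLA-DPA1 and HLA-DPB1), 5 in the SGI-1027 group (CD74, CIITA, HLA-DMA, HLA-DOB and HLA-DPA1) and 0 in the combination group, where 3.89%, 6.25% and 7.25% of all tested genes were called higher. HLA-DPA1 and HLA-DPB1 passed the filter only through treated libraries. CIITA and HLA-DOB, with 1 DMSO library each at the filter level, also needed treated libraries to pass. These counts therefore describe the tested members and carry no support of their own. Between the treated groups, IFI30 was the only member called higher with the combination than with everolimus (20.1% of all genes) and than with SGI-1027 (9.40%), and HLA-DOB and IFI30 were called higher with SGI-1027 than with everolimus (13.0%).

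**Figure D2:**
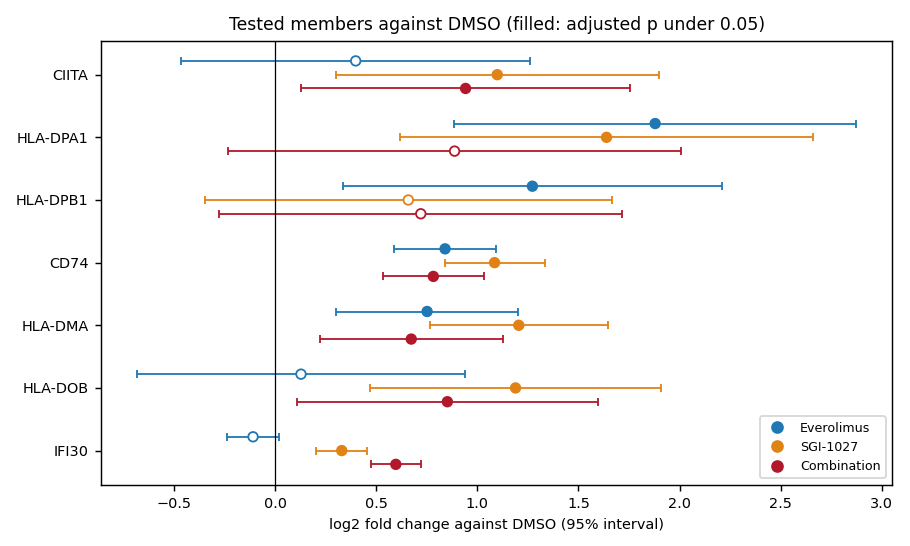
Log2 fold change against DMSO (horizontal axis) of the 7 tested genes in the everolimus, SGI-1027 and combination groups, from edgeR; bars are 95% intervals and filled points have an adjusted p under 0.05. CD74 and HLA-DMA are filled in all 3 groups, while HLA-DPA1 runs from 1.88 with everolimus to 0.89, unfilled, with the combination.

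The combination's change was then compared with the sum of the single-drug changes on the log2 scale, which is the interaction contrast. For CD74 the single-drug log2 fold changes summed to 1.92 against 0.78 with both drugs, an interaction of -1.14 (standard error 0.16, edgeR adjusted p = 1.88e-05). For HLA-DMA they summed to 1.96 against 0.67, an interaction of -1.28 (standard error 0.29, adjusted p = 0.00156 in the same edgeR test). The gap of HLA-DPA1 was the widest, with 3.52 against 0.89, an interaction of -2.63 (standard error 0.64, edgeR adjusted p = 0.00275). HLA-DPA1 reached the filter level in 0 DMSO, 3 everolimus, 2 SGI-1027 and 1 combination library, so its entry into this test came mainly from the single-drug groups, where it was high. Without any filter its interaction was -2.61 (edgeR adjusted p = 0.00258). CD74 RNA rose 1.79-fold with everolimus, 2.12-fold with SGI-1027 and 1.72-fold with both. IFI30 went the other way, with 0.22 as the sum and 0.60 with both drugs, an interaction of 0.38 (standard error 0.08, edgeR adjusted p = 0.00137). Among all tested genes, 22.1% had an interaction called lower and 23.6% higher, so calls of this kind were common in the series. CIITA (-0.55, 95% interval -1.68 to 0.57), HLA-DOB (-0.46, -1.51 to 0.58) and HLA-DPB1 (-1.21, -2.53 to 0.11) had interactions below 0 that were not called, and their intervals reached past the value of CD74. All 4 interactions kept their sign and an adjusted p under 0.05 in every other fit that tested the gene, but at the study's cut-off the IFI30 interaction was too small to be called and 3 remained. Over the alternatives on counts, CD74 lay between -1.22 and -1.07, HLA-DMA between -1.39 and -1.14, HLA-DPA1 between -2.97 and -2.37 and IFI30 between 0.30 and 0.40. On the log2(FPKM + 1) and log2(FPKM + 0.1) scales, which understate changes of low genes, limma-trend gave -0.36 and -1.56 for HLA-DPA1 and -0.65 and -1.04 for CD74. An additive expectation on the log2 scale assumes that the everolimus dose was the same alone and in the combination, which the treatment text leaves unclear.

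**Figure D3:**
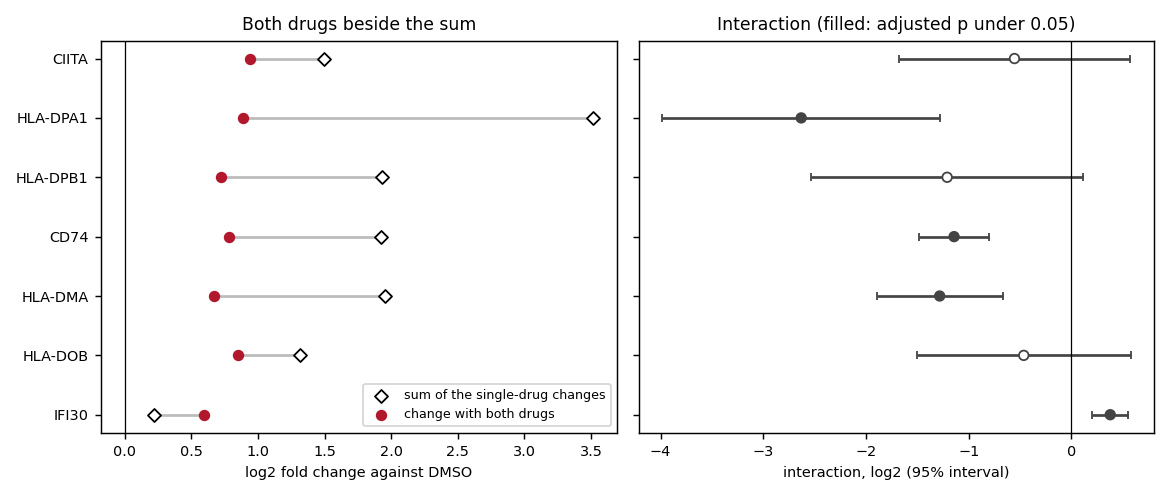
Left, log2 fold change against DMSO with both drugs (filled circles) beside the sum of the single-drug changes (open diamonds) for the 7 tested genes; right, their difference, the interaction, with 95% intervals, filled where the adjusted p was under 0.05. HLA-DPA1 shows the widest gap, 3.52 against 0.89, and IFI30 alone has an interaction above 0 (0.38).

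Per length, the class II chains were far below the class I chains HLA-B and HLA-C. IFI30 had the highest FPKM, 16.6 ± 0.582 with DMSO and 25.4 ± 0.716 with the combination, and 79.99% of the genes in the table were at or below it with DMSO. CD74 came next, at 0.948 ± 0.0453 with DMSO and 2.01 ± 0.204 with SGI-1027, beside 0.924 ± 0.164 and 2.14 ± 0.275 for HLA-DMA (SD, n = 3 per group), so the invariant chain and HLA-DMA were close to each other per length. HLA-DOB followed at 0.209 to 0.474 FPKM as group means, HLA-DPA1 at 0.0741 to 0.276 and HLA-DPB1 at 0.0487 to 0.120. CIITA had the lowest FPKM, 0.0122 ± 0.00203 with DMSO and 0.0263 ± 0.00790 with SGI-1027. The 4 peptide-binding chains together reached 0.255 ± 0.132, 0.502 ± 0.0850, 0.472 ± 0.0528 and 0.377 ± 0.0210 FPKM in the DMSO, everolimus, SGI-1027 and combination groups. The class I heavy chain HLA-B stood at 342 ± 5.38, 464 ± 5.75, 531 ± 9.67 and 638 ± 7.30 FPKM in the same order. The ratio of IFI30 to CD74 in FPKM was 17.5 ± 1.48, 9.11 ± 0.972, 10.4 ± 1.12 and 15.4 ± 0.617, again in that order. The gene length behind the FPKM values was 19560 bases for CIITA, 1750 for HLA-DPA1, 3991 for HLA-DPB1, 3409 for CD74 and 1093 for HLA-DMA, as worked back from counts and totals, against joined exon lengths of 20757, 5748, 2791, 3184 and 2534 in GENCODE 29. The order of the genes per length therefore depends on that choice, while changes between groups do not.

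**Figure D4:**
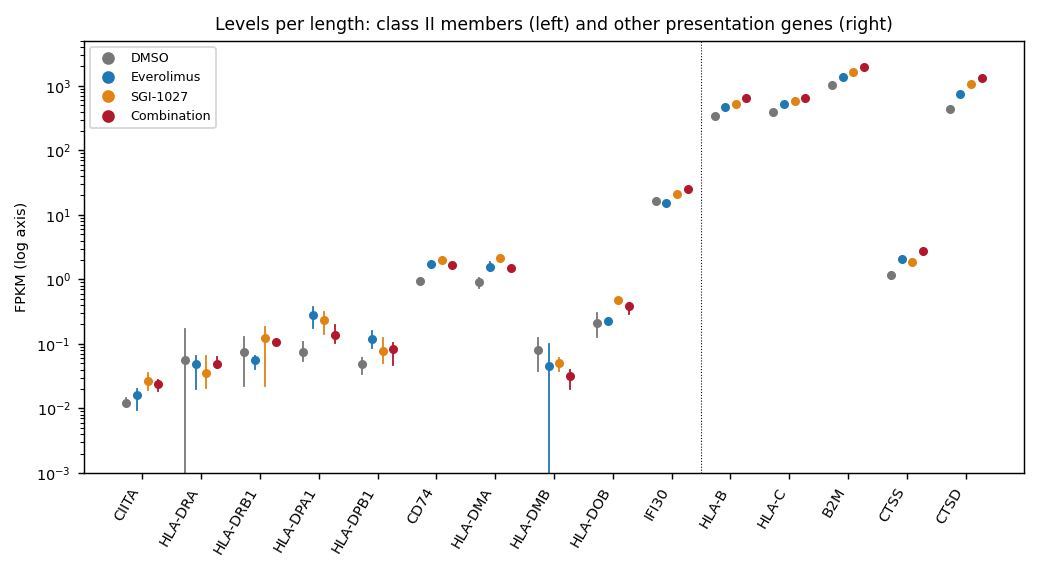
FPKM (log axis) of the 10 class II genes and, right of the dotted line, of HLA-B, HLA-C, B2M, CTSS and CTSD in the 4 groups; points are means and lines span the lowest to the highest of 3 libraries, with lines that reach the bottom including a library at 0. IFI30 (16.6 FPKM with DMSO) stands above the other members, the next being CD74 at 0.948.

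Across the 12 libraries, log2 CPM of CD74 and HLA-DMA had a Pearson correlation of 0.89, CD74 and HLA-DPA1 of 0.75, and CIITA of 0.67 with CD74 and 0.66 with HLA-DOB. IFI30 had 0.38 with CD74 and -0.04 with HLA-DPA1. These are descriptions over 12 libraries that share 4 groups, so they mostly restate group means. The genes most like CIITA outside the set, over the same 12 libraries, were SUSD6 (0.93), CEP290 (0.92), CASP8AP2 (0.90), SCAPER (0.89) and ZNF860 (0.89), and those most like IFI30 were CAMK2D (0.99), NPC1 (0.99), MAP3K9 (0.98), CCND1 (0.98) and SARS1 (0.98).

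Few genes of the proteins on which CIITA docks were called. Of 8 tested RFX, CREB, ATF and NF-Y genes, 1 was called higher and 0 lower with everolimus, 1 and 1 with SGI-1027 and 0 and 1 with the combination, with medians of -0.05, -0.06 and 0.01 beside 0.00, 0.02 and 0.01 over all tested genes. NFYB, a subunit of the Y box factor NF-Y, had a log2 fold change of -0.29 with the combination (edgeR adjusted p = 0.00150), and ATF1, a relative of CREB, had -0.19 (adjusted p = 0.0667). Of 11 tested genes that act upstream of CIITA or at its promoters, 4 were higher and 4 lower with everolimus, 6 and 2 with SGI-1027, and 4 and 3 with the combination, with medians of 0.08, 0.17 and 0.06. These counts lie near the shares of all tested genes for everolimus (27.2% higher and 29.2% lower) and the combination (32.8% and 33.4%), and for SGI-1027 the shares were 32.0% and 30.6%. IRF1, an interferon-inducible transcription factor, rose by 0.19, 0.54 and 0.54 (log2) in the everolimus, SGI-1027 and combination groups, all past an edgeR adjusted p of 0.05. IRF8, a factor of myeloid and B cells, fell with everolimus by 1.73 (edgeR adjusted p = 0.00165) and with the combination by 0.89 (adjusted p = 0.0449), from 0.276 ± 0.146 FPKM with DMSO. Its DMSO counts ran unevenly from 21 to 45 per library, and these calls were not checked without single libraries. IFNG had no row in the table.

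Among 12 tested chromatin enzymes and cofactors, 1 was higher and 8 lower with everolimus, 1 and 6 with SGI-1027, and 1 and 9 with the combination, where 29.2%, 30.6% and 33.4% of all tested genes were called lower. The list medians were -0.19, -0.16 and -0.26 beside 0.00, 0.02 and 0.01 over all tested genes. DNMT1, the maintenance DNA methyltransferase, fell by 0.67, 0.61 and 0.62 (log2) in the 3 treated groups, and HDAC1, a histone deacetylase, by 0.27, 0.45 and 0.52, each past an edgeR adjusted p of 0.05. DNA methylation at CIITA or class II promoters was not measured in these libraries.

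Endosomal proteases prepare class II peptides and degrade CD74. Of 10 tested endosomal proteases, 5 were higher and 1 lower with everolimus, 7 and 1 with SGI-1027, and 7 and 1 with the combination, with medians of 0.22, 0.49 and 0.57, beside the shares of all tested genes called higher (27.2%, 32.0% and 32.8%) and lower (29.2%, 30.6% and 33.4%). CTSS, cathepsin S, which trims CD74, rose by 0.82, 0.68 and 1.23 on the log2 scale, CTSD, the aspartic protease cathepsin D, by 0.74, 1.27 and 1.54, and CTSB, cathepsin B, by 0.41, 0.58 and 0.72. All 9 of these values passed an edgeR adjusted p of 0.05. In the order DMSO, everolimus, SGI-1027 and combination, CTSS stood at 1.15 ± 0.143, 2.05 ± 0.246, 1.85 ± 0.186 and 2.75 ± 0.379 FPKM, thus highest with both drugs like IFI30 and unlike CD74. On a list of 10 tested genes for class II traffic and turnover, 5 were higher and 3 lower with everolimus and with SGI-1027, and 7 and 2 with the combination, with medians of 0.24, 0.16 and 0.37 beside the same all-gene shares. CD63, a tetraspanin of late endosomes, rose by 0.25, 0.47 and 0.73, RILP, a Rab7 effector, reached 1.09 with the combination, and AP2M1, an endocytic adaptor subunit, fell by 0.32 with the combination. CD9, another tetraspanin, rose by 1.73 with SGI-1027 (edgeR adjusted p = 0.00372) and 1.67 with the combination (adjusted p = 0.00463), from 18 counts over the 3 DMSO libraries.

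Class I presentation genes rose with the combination without exception. Of 15 tested, 10 were higher and 2 lower with everolimus, 14 and 0 with SGI-1027, and 15 and 0 with the combination, with medians of 0.36, 0.53 and 0.75. Among all tested genes 27.2%, 32.0% and 32.8% were called higher in these groups. HLA-B rose by 0.43, 0.64 and 0.88 on the log2 scale, B2M, the class I light chain, by 0.38, 0.64 and 0.89, and HLA-F by 0.28, 1.09 and 1.65, each past an edgeR adjusted p of 0.05. In the interaction contrast 8 of the 15 were lower and 6 higher than additive (22.1% and 23.6% of all tested genes), HLA-B by -0.19 and HLA-F by 0.28, whereas that of CD74 was -1.14. Of the other CD74 receptor genes, CD44, which signals with CD74 at the surface, had log2 fold changes of -0.24, -0.29 and 0.19, all called, and MIF, a ligand of CD74, was not called (0.05, -0.03 and -0.10). That list had 3 tested genes, 0 higher and 1 lower with everolimus, 0 and 1 with SGI-1027, and 1 and 0 with the combination. Of 8 tested T cell co-stimulation and inhibition genes, 1, 3 and 3 were higher and 1, 2 and 2 lower in the same order of groups. Of all tested genes, 27.2%, 32.0% and 32.8% were called higher and 29.2%, 30.6% and 33.4% lower, so these counts did not stand out. The PD-1 ligand CD274 changed by -0.09 (not called), 0.59 and 0.92, and PDCD1LG2, the second PD-1 ligand, by 0.12 (not called), 0.65 and 1.22. TNFSF4, the OX40 ligand, changed by 1.13, 1.27 and 1.76, from 30 counts over the 3 DMSO libraries.

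**Figure D5:**
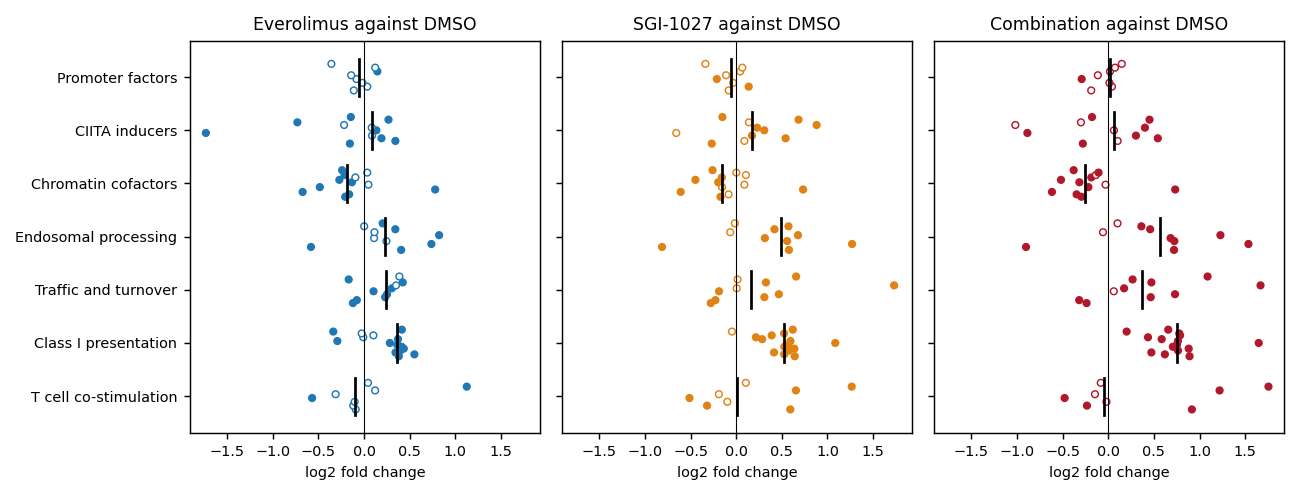
Log2 fold change against DMSO (horizontal axes) of each tested gene in 7 gene lists with everolimus, SGI-1027 and the combination; filled points have an edgeR adjusted p under 0.05 and black bars are list medians. Class I genes have medians of 0.36, 0.53 and 0.75, while the promoter factors stay near 0 (-0.05, -0.06 and 0.01).

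Cells that carry class II constitutively were looked for by their markers. The 6 B cell markers summed to 7 to 29 counts per library, with MS4A1 at 0 in all DMSO libraries and CD79B at 0 in all combination libraries. Other B cell markers went in opposite directions at low counts, with CD22 at 2, 1, 8 and 23 and PAX5 at 43, 13, 16 and 13 counts summed over the DMSO, everolimus, SGI-1027 and combination libraries. None of the 6 passed the filter. Of 10 macrophage and dendritic cell markers 8 had a row, and they summed to 1.49 to 1.76 FPKM with DMSO, 1.55 to 1.85 with everolimus, 1.40 to 1.65 with SGI-1027 and 1.31 to 1.46 with the combination. CD1C was at 0 in every treated library and PTPRC, the pan-leukocyte CD45, had at most 1 count per group. ITGAX, an integrin of myeloid cells, rose by 0.97, 1.65 and 2.37 (log2) in the 3 treated groups, from 47 counts over the 3 DMSO libraries, and CSF1R, the macrophage growth factor receptor, fell by 0.43 with SGI-1027 and 0.72 with the combination, each past an edgeR adjusted p of 0.05. The part of these markers in the class II values was not tested. DEXI, which overlaps CIITA on the opposite strand and was chosen after its values were seen, fell by 0.23 with SGI-1027 and 0.21 with the combination at 17.2 to 20.1 FPKM, and BRD2, which overlaps HLA-DMA on the opposite strand, was not called against DMSO in any group (-0.07, 0.00 and -0.08).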

How the data were processed

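Libraries from 786-O cells in 4 groups of 3 were compared by group as labelled. The authors deposited whole-number read counts per gene symbol, not normalized, and FPKM values for the same genes. Aligner, counter and annotation are not given in the sources used here. The processing notes name the mouse builds GRCm38 and mm10 although the symbols are human, so no coordinate was taken from the files. Labels name an RNeasy and SMARTer preparation, the paper TRIzol and stranded TruSeq.

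Counts were fitted in R 4.3.3 with edgeR 4.0.16 (TMM factors, filterByExpr by group, quasi-likelihood, prior count 0.125), all 12 libraries in one fit of group means. Of 17085 genes, 12841 were tested and adjusted over (Benjamini-Hochberg). Standard errors are the absolute log2 fold change over the square root of F. Alternatives were DESeq2 1.42.0, upper-quartile factors, other filters, a replicate term, fits of the compared groups only, limma 3.58.1 (limma-trend) on log2(FPKM + 1) and log2(FPKM + 0.1), the study's cut-off, and leaving out each library. The fits were tested on simulated data.

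The members and gene lists were chosen with earlier results of these data known. All members are named. From each other list, the genes called with a log2 change of 1 or more in size against DMSO and the 2 with the smallest p in the combination are named, and as most alike the 5 genes with the highest correlation to CIITA and to the member with the smallest p there. Some genes that this rule would name are not reported here. Counts of 37046231 to 41516976 per library give wide intervals for members under about 30 counts.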

Additional observations from a re-analysis of the deposited data

Results flagged for a closer look

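CD74, HLA-DMA, HLA-DPA1 and IFI30 had an effect of both drugs together that differed from the sum of the single-drug effects by a test of that difference, the interaction term of edgeR's quasi-likelihood fit. The interaction was -1.14 for CD74, -1.28 for HLA-DMA and -2.63 for HLA-DPA1, and 0.38 for IFI30, all on the log2 scale. HLA-DPA1 rests on 4 to 24 counts per library and passed the filter on low counts only through treated libraries, mainly those of the single drugs. Without any filter its interaction was -2.61 (edgeR adjusted p = 0.00258). Everolimus may have been given at another dose alone than in the combination, and the part of dose in these values was not tested. Groups of 3 libraries were not tested for outlying values. Without DMSO replicate 1 or SGI-1027 replicate 3, which stood apart from their groups, all 4 interactions kept their sign and an adjusted p under 0.05 in edgeR's test.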

How the results depend on the processing

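Of the members' log2 fold changes under the alternatives, 892 kept direction and side of the threshold, 38 lost a call, 13 gained one and 9, none of them called, changed sign. All sign changes came from leaving out a library. Over the libraries left out, HLA-DOB in the everolimus group against DMSO ranged from -0.14 (without DMSO replicate 2) to 0.48, and HLA-DMA in the combination against everolimus from -0.18 to 0.055 (without everolimus replicate 1). In the combination against SGI-1027, CIITA ranged from -0.33 to 0.10 (without SGI-1027 replicate 1) and HLA-DPB1 from -0.17 to 0.51 (below 0 without SGI-1027 replicate 1 or 3 or combination replicate 1 or 2). In SGI-1027 against everolimus, HLA-DPA1 ranged from -0.49 to 0.017 (above 0 without everolimus replicate 1 or SGI-1027 replicate 1).

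Members called against DMSO numbered 4 under everolimus, 6 under SGI-1027 and 5 under both drugs. At least 10 counts in every library left 3 members to test, of which 2, 3 and 3 were called, and 1 for SGI-1027 against everolimus. With that filter 3436, 3974 and 4056 of all 12009 tested genes were called higher against DMSO, and 1645 for SGI-1027 against everolimus. DESeq2 and no filter each called 3 with the combination against DMSO and 1 for SGI-1027 against everolimus. They called 4146 of 12841 and 4153 of 16734 genes higher with the combination, and 1630 and 1597 for SGI-1027 against everolimus. The study's cut-off called 2 with everolimus, 0 with the combination against DMSO, everolimus or SGI-1027, 1 for SGI-1027 against everolimus and 3 for the interaction. Of all tested genes it called 3.89% higher with everolimus, 1.53% higher for SGI-1027 against everolimus and 4.63% lower for the interaction. Limma-trend on log2(FPKM + 1) and log2(FPKM + 0.1) called 3 and 3 for the combination against everolimus and 3 and 2 against SGI-1027, where edgeR called 1 each. Of all 12841 tested genes these fits called 2703 and 2662 higher and 2137 and 2151 lower against everolimus. Against SGI-1027 they called 1464 and 1399 higher and 1042 and 1032 lower. The cause of these differences in members called was not tested, apart from the filter, which leaves fewer genes. Leaving out a library gave 3 to 4 calls under everolimus, 5 to 6 under SGI-1027 and 3 to 4 under both drugs against DMSO (3 without DMSO replicate 1 or 2 or combination replicate 3), 1 to 2 for the combination against everolimus (2 without everolimus replicate 3) and against SGI-1027 (2 without SGI-1027 replicate 1), 1 to 2 for SGI-1027 against everolimus and 4 to 4 for the interaction. In these fits 3115 to 3692, 3769 to 4121 and 3932 to 4339 of 12937 to 12969 tested genes were called higher against DMSO.

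Same-numbered libraries of different groups did not deviate together (correlations -0.18 to 0.04 over 18 pairs, and 2 of 12 libraries closest to their own number). No pairing by number was thus seen, which does not show that such libraries were prepared apart. With the replicate block 4 members were called with the combination, CIITA not among them (0.94, edgeR adjusted p = 0.0520). Of all 12841 tested genes, 4150 were then called higher and 4220 lower.

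Upper-quartile factors raised the share of higher calls with everolimus (4480 higher and 2901 lower, against 3488 and 3749) and lowered it for the interaction (2335 and 3578, against 3028 and 2833), with shifts of the all-gene median to 0.08 and -0.08, and changed no member's call. Depth limited HLA-DRA, HLA-DRB1 and HLA-DMB most.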
